A study of Mus musculus with 18 samples.

Results

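The 9 genes described here encode inflammatory chemokines and cytokines: the CC chemokines Ccl3, Ccl4 and Ccl9, the CXC chemokines Cxcl2 and Cxcl10, the interleukins Il1b, Il1a and Il6, and the tumour necrosis factor gene Tnf. They were taken by symbol from the deposited table of FPKM (read counts scaled by gene length and library total), where each symbol stood for 1 of the 53946 genes. RNA was sequenced in 12 mouse libraries, 3 in each of 4 groups. Each group also had 1 library for DNA methylation (whole-genome bisulfite sequencing, 4 libraries in all), and trimethylation of lysine 36 on histone H3 (H3K36me3) was profiled by ChIP-seq in 2 more.

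All groups are on the C57BL/6 strain. AML stands for C-Kit+ cells sorted from the spleen of NHD13/Setd2 KO mice with leukemia. KO-labelled stands for bone marrow stem and progenitor cells of the blood (HSPCs) from NHD13/Setd2 KO mice, in which Cre from the interferon-inducible Mx1 promoter was used to delete Setd2, the gene of the enzyme that lays down H3K36me3. NHD13 stands for bone marrow HSPCs of NHD13/Setd2 flox/flox mice, with floxed Setd2 alleles. These 3 groups share the Nup98-HoxD13 (NHD13) fusion transgene. WT stands for bone marrow HSPCs of C57BL/6 mice without it. The ChIP libraries were C-Kit+ spleen cells at the leukemia stage, 1 labelled NHD13/Setd2 KO and 1 labelled NHD13. The age of the mice, the agent that induced Mx1-Cre, whether the floxed mice carried Cre or received that agent, and the promoter of the transgene were not given in the sources used here. AML differed from the KO-labelled group in organ and in sort as well as in disease stage, and these cannot be told apart.

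Chemokines are small secreted proteins that draw leukocytes along a gradient by binding G-protein-coupled receptors, and inflammatory cytokines such as interleukin 1, interleukin 6 and tumour necrosis factor switch on defence programs in the cells that carry their receptors. In myeloid cells most of these genes are induced through Toll-like receptors and the transcription factor NF-kappaB, which also induces its own inhibitors. Cxcl10 is, in addition, a classical target of interferons. In the bone marrow these factors are known to act on stem and progenitor cells as well as on mature myeloid cells.

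Depth ran from 18673704 to 28127686 counts per library. Setd2 itself stood at 179 to 187 CPM (read counts scaled to a common library total) in AML, 29.2 to 34.9 CPM in the KO-labelled libraries, 31.5 to 34.6 CPM in NHD13 and 37.2 to 45.2 CPM in WT. AML, whose mice also carry the NHD13/Setd2 KO label, thus held the highest Setd2 level of the 4 groups, and the cause was not tested. A count over the whole gene does not check the deletion of an exon, so the RNA libraries of the KO-labelled and AML groups rest on their labels. The Y-linked gene Eif2s3y was at 57.6 to 71.3 CPM in AML and KO-labelled libraries and at no more than 0.0494 CPM in NHD13 and WT, while Xist stood at 66.0 to 218 CPM in NHD13 and WT. Sex therefore differed between AML and KO-labelled libraries on one side and NHD13 and WT on the other, and sex and the label cannot be told apart in any comparison across these sides, KO-labelled over NHD13 among them. Among the defining progenitor markers, Kit was present in every group, with the highest mean (215 CPM) in AML and the lowest (73.6 CPM) in NHD13, but NHD13 held only 1.05 CPM of Flt3 and 12.6 CPM of Cd34, against 122 and 388 CPM in WT. WT replicate 1 stood apart from the other WT replicates, with chi-square values per degree of freedom of 29.5 and 28.4, against 3.91 between replicates 2 and 3. NHD13 replicates 2 and 3 were also far apart, at 23.1, against 12.2 and 7.85 for the other NHD13 pairs. Whether the 3 libraries of a group are 3 animals is not said in the labels. The p-values therefore rest on the scatter of libraries, and that scatter may be technical.

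The genes lie in a few clusters. In the mm10 build (GRCm38.p6, RefSeq annotation), Ccl9 (chr11:83572917-83578636, minus strand) lies 69206 bases from Ccl3 (chr11:83647843-83649378, minus strand), and the RefSeq span of Ccl4 (chr11:83648624-83664683) shares 755 bases with that of Ccl3. Cxcl2 (chr5:90903899-90905938, plus strand), Cxcl10 (chr5:92346638-92348889, minus strand) and Il6 (chr5:30013114-30019975, plus strand) are on chromosome 5. Il1b (chr2:129364569-129371164, minus strand) and Il1a (chr2:129299609-129310186, minus strand) are neighbours on chromosome 2, 54382 bases apart, and Tnf (chr17:35199367-35202007, minus strand) is on chromosome 17. Cxcl10 overlaps Art3, Il1b overlaps Il1bos, Il1a overlaps Gm14023 and Il6 overlaps A230098N10Rik. The strand setting of the counting was not given in the sources used here. Reads of these genes and of the Ccl3 and Ccl4 overlap are uncertain to that extent.

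Promoter sequences from RefSeq (GRCm38.p6) were matched for 8 of the 9 genes. The 250 bases before the annotated start are shown for 4 genes whose levels took different courses over the groups. Ccl3 (chr11:83649379-83649628) is shown because of the 8 it is the 1 gene whose promoter window was touched by a differentially methylated region, and its capitals mark the 24 bases inside that region. In Cxcl10 (chr5:92348890-92349139), Il1b (chr2:129371140-129371389) and Tnf (chr17:35202008-35202257) the capitals mark matches to the kappaB consensus, TATAAA or an interferon response motif (GAAA, any 2 bases, GAAA). The start used for the Il1b promoter lies inside the gene span given above, so the last bases of its sequence fall within that span. The same holds for the start of Il1a, whose sequence is not shown.
Ccl3: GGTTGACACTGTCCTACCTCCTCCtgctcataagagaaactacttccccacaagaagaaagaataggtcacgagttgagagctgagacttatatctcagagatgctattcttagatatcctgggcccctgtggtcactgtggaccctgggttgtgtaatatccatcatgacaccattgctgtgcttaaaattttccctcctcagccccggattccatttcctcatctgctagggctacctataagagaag
Cxcl10: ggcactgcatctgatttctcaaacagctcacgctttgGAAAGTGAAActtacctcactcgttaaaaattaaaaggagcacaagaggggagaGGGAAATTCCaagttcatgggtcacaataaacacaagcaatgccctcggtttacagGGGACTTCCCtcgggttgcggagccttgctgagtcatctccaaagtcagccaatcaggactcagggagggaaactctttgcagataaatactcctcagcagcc
Il1b: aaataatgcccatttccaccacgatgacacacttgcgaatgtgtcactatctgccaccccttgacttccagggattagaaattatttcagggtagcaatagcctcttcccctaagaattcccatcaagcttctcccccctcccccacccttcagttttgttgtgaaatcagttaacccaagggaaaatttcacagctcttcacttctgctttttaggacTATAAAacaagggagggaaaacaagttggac
Tnf: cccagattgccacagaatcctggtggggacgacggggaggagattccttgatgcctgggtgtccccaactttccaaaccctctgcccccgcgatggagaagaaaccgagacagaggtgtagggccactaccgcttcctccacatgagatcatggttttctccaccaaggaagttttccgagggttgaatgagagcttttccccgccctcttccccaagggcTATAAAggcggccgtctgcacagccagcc
Both strands were searched over 300 bases, from 250 before the start to 50 after it, with 5 motifs. The kappaB consensus, which NF-kappaB binds, matched in 4 of 8 members (Ccl9, Cxcl2, Cxcl10 and Il6), against 4.35% of 27025 promoters of the same length. TATAAA, the TATA box, matched in 4 of 8 (Ccl9, Il1b, Il1a and Tnf), against 14.2% of all promoters. TGANTCA, the AP-1 motif, matched in 4 of 8 (Ccl9, Cxcl10, Il1a and Il6), against 7.93%. The interferon response motif, GAAA with any 2 bases and then GAAA, matched in Cxcl10 alone, against 3.49% of all promoters, and TTGCNNAA, a C/EBP motif, matched in Il6 alone, against 10.8%. The kappaB matches of Cxcl10 span -159 to -150 and -103 to -94 relative to the start, and the TATAAA of Il1b and Tnf begin at -31 and -29. Matches to kappaB on opposite strands of Cxcl2 overlap, as do matches to TATAAA in Ccl9. These are matches of letters in a window and no more.

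Levels of different genes were compared as FPKM, which makes them comparable per length. Summed over the 9 genes, FPKM came to 113 to 120.4 in AML, 644 to 692 in the KO-labelled libraries, 340 to 361 in NHD13 and 1170 to 1255 in WT, and no library of one group reached the range of another. FPKM carries no TMM factor, and Ccl3 and Ccl4 weigh more in it than in CPM. Summed as CPM with TMM factors, the same genes came to 202 to 212 in AML, 937 to 1006 in the KO-labelled libraries, 594 to 666 in NHD13 and 1092.5 to 1251 in WT, in the same order and with narrower steps between the HSPC groups. The make-up of that sum differed too. Ccl3 and Ccl4 gave 40.5% to 43.1% and 39.1% to 43.1% of it in WT, and in AML they gave 5.52% to 6.30% and 1.62% to 2.29%. In AML the sum was mostly Ccl9 (43.0% to 43.9%) and Tnf (41.4% to 42.8%). Cxcl10 had its highest share, 16.04% to 17.1%, in NHD13, against 1.38% to 1.61% in WT. The RNA is from sorted cells in bulk, so fewer cells of a type and less RNA per cell cannot be told apart here.

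**Figure D1:**
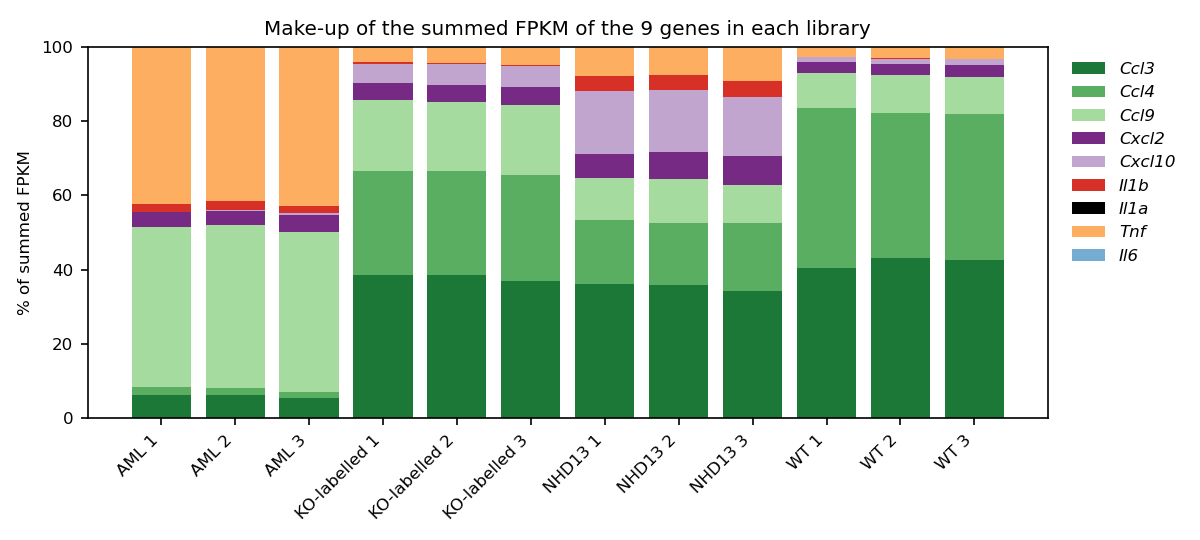
Share of each gene (% of summed FPKM, vertical axis) in the total of the 9 genes, with 1 stacked bar for each of the 12 libraries. Tnf and Ccl9 fill most of the AML bars, Cxcl10 has its largest share in NHD13, and Ccl3 with Ccl4 fill most of the WT bars.

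Differences between groups were tested on the counts with edgeR's quasi-likelihood test and Benjamini-Hochberg adjustment over 16233 genes, at an adjusted p of 0.05. CPM values are scaled by library total over the tested genes and by TMM factor, and log2 fold changes are given ± SE with n = 3 libraries a group. Il1a did not pass the filter on low counts, so 8 of the 9 genes were tested. Passing the filter is set by the groups where a gene is high, so the counts below describe the tested genes and are read against all genes.

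NHD13 over WT asked what the fusion transgene, with floxed Setd2, changed in HSPCs. Of the 8 tested genes, Cxcl10 and Il1b rose, Ccl3, Ccl4, Ccl9 and Il6 fell, and Cxcl2 and Tnf did not pass the test. In all, 54.0% of the tested genes were called, 25.3% higher and 28.7% lower, so a call as such was common. The median log2 fold change was -0.70 over the 8 genes and -0.04 over all tested genes.

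KO-labelled over NHD13 set the mice labelled as deleted for Setd2 against those with floxed Setd2, on the transgenic background and across the difference in sex given above. Ccl3, Ccl4, Ccl9 and Il6 rose, Cxcl10 and Il1b fell, and Cxcl2 and Tnf again did not pass the test, against 40.9% of all tested genes called, 20.6% higher and 20.3% lower. The median was 0.46 over the 8 genes and 0.02 over all. This comparison uses the same NHD13 libraries as the one before it, so their opposite signs are not independent of each other.

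AML over KO-labelled asked what differed at the leukemia stage. Ccl3, Ccl4, Ccl9, Cxcl2, Cxcl10 and Il6 fell, Tnf rose, and Il1b did not pass the test. Here 82.4% of all tested genes were called, 42.8% higher and 39.5% lower, so the count of 7 calls is near the background. The median log2 fold change, at -3.87 over the 8 genes and 0.07 over all, describes the size.

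**Figure D2:**
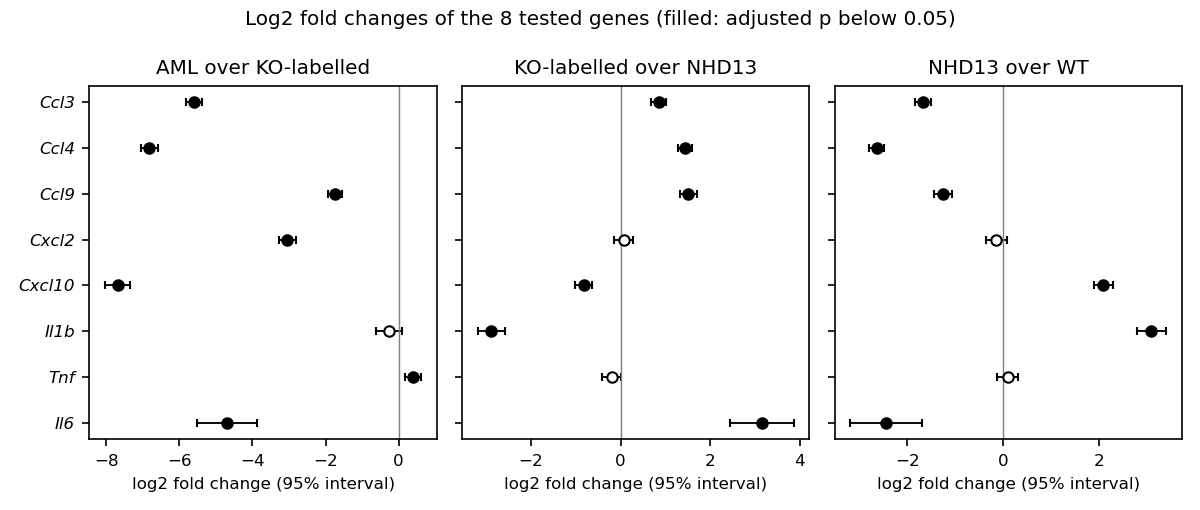
Log2 fold changes (horizontal axis) of the 8 tested genes in AML over KO-labelled, KO-labelled over NHD13 and NHD13 over WT libraries (n = 3 libraries a group). The 95% intervals were computed from the SE and a t quantile with 8 degrees of freedom. Filled points passed an adjusted p of 0.05 and open points did not. Horizontal scales differ between panels, and values reach -7.69 for Cxcl10 in AML.

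**Figure D3:**
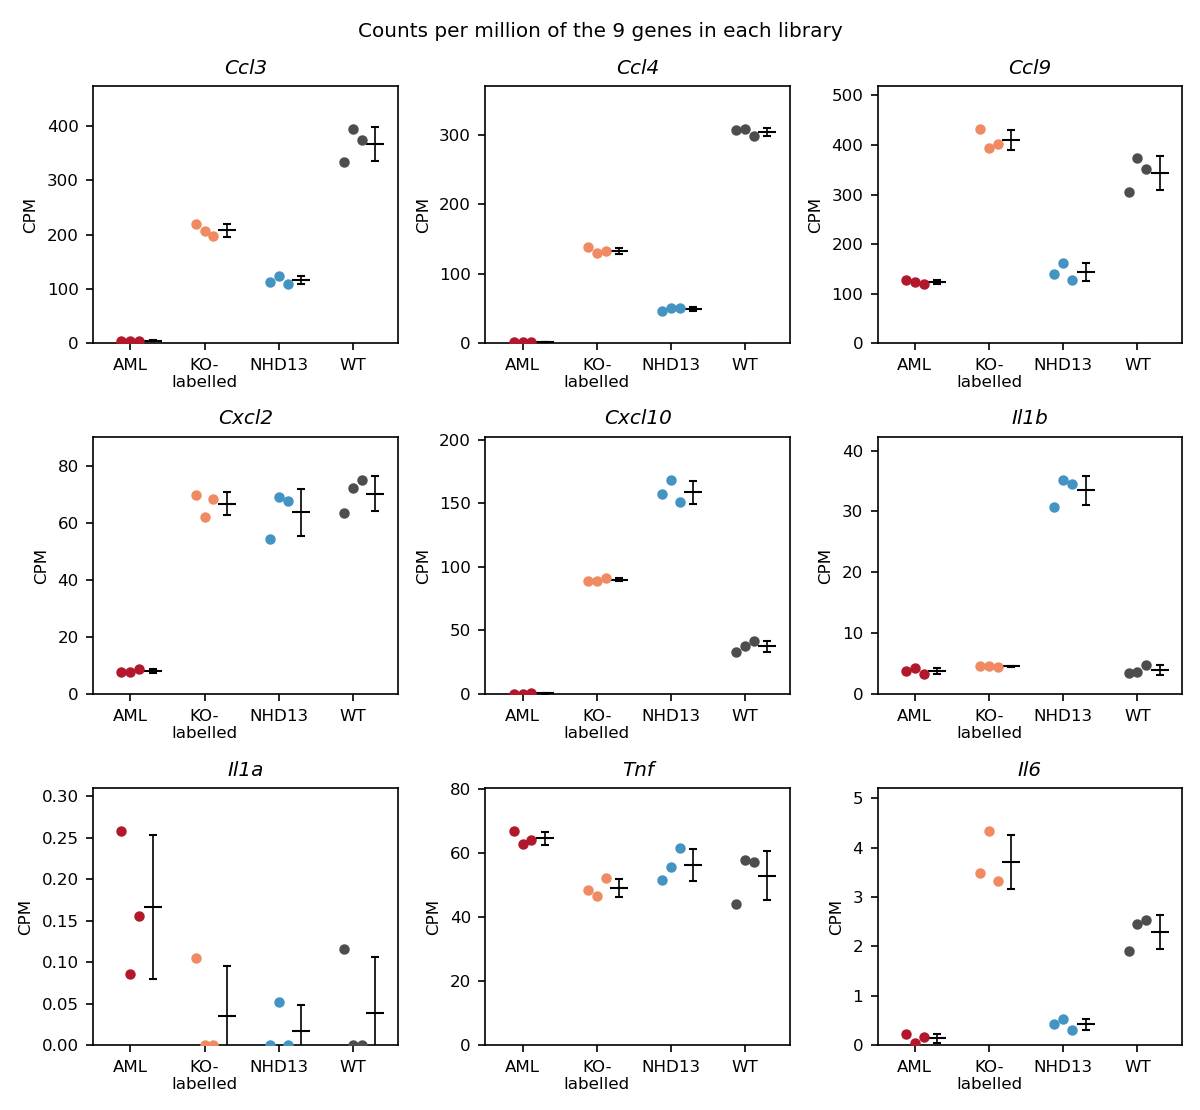
CPM (vertical axes, each from 0) of the 9 genes in each library of the AML, KO-labelled, NHD13 and WT groups. Points are libraries, and the bar beside them is the mean ± SD (n = 3). WT is highest for Ccl3 and Ccl4, NHD13 for Cxcl10 and Il1b, and the KO-labelled group for Il6.

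Among the CC chemokines, Ccl3 (ENSMUSG00000000982) binds Ccr1 and draws monocytes and lymphocytes. It stood at 4.57, 4.47 and 3.86 CPM in AML, 220.2, 206 and 198 CPM in the KO-labelled libraries, 113, 124 and 109.6 CPM in NHD13 and 334, 395 and 374 CPM in WT. The 4 groups did not overlap, and WT was highest and AML lowest. Relative to WT, Ccl3 fell 3.18-fold in NHD13 (log2 -1.67 ± 0.07, edgeR adjusted p = 6.10e-13). In the KO-labelled libraries it was 1.80-fold higher than in NHD13 (log2 0.85 ± 0.07, edgeR adjusted p = 1.66e-08) and still 1.77-fold lower than in WT (log2 -0.82 ± 0.07, edgeR adjusted p = 4.24e-08). AML lay 48.4-fold below the KO-labelled group (log2 -5.60 ± 0.10, edgeR adjusted p = 6.80e-19).

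Ccl4 (ENSMUSG00000018930), which attracts monocytes and lymphocytes, took the same order with wider steps. Its values were 1.47, 1.06 and 0.975 CPM in AML, 138, 129 and 132 CPM in the KO-labelled libraries, 46.3, 50.02 and 50.5 CPM in NHD13 and 306, 308 and 298 CPM in WT. No group overlapped another, and WT was again highest. The NHD13 level was 6.21-fold below WT (log2 -2.63 ± 0.07, edgeR adjusted p = 3.53e-16), and the KO-labelled level was 2.71-fold above NHD13 (log2 1.44 ± 0.07, edgeR adjusted p = 2.61e-12) and 2.29-fold below WT (log2 -1.19 ± 0.06, edgeR adjusted p = 5.86e-11). In AML, where 34, 25 and 25 reads were counted, it was 114-fold below the KO-labelled group (log2 -6.83 ± 0.10, edgeR adjusted p = 1.95e-19). Per length, Ccl4 was lower than Ccl3 in AML, at 2.19 ± 0.497 FPKM against 6.94 ± 0.587 FPKM for Ccl3, and the genes were closer in WT, at 491 ± 13.9 FPKM for Ccl4 and 511 ± 34.1 FPKM for Ccl3 (SD, n = 3).

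Ccl9 (ENSMUSG00000019122), a mouse chemokine that attracts myeloid cells through Ccr1, kept the highest level of the CC chemokines in AML. It stood at 127, 124 and 119.6 CPM in AML, 433, 395 and 402 CPM in the KO-labelled libraries, 139.8, 163 and 128 CPM in NHD13 and 306, 374 and 351 CPM in WT. KO-labelled libraries were highest, and NHD13 and AML both lay far below WT. Ccl9 fell 2.40-fold in NHD13 relative to WT (log2 -1.26 ± 0.08, edgeR adjusted p = 3.93e-10) and rose 2.86-fold in the KO-labelled libraries relative to NHD13 (log2 1.51 ± 0.08, edgeR adjusted p = 5.43e-11), where it passed the WT level by 1.19-fold (log2 0.25 ± 0.08, edgeR adjusted p = 0.0207). In AML it was 3.32-fold below the KO-labelled level (log2 -1.73 ± 0.08, edgeR adjusted p = 8.07e-13) and 1.16-fold below NHD13 (log2 -0.22 ± 0.08, edgeR adjusted p = 0.0233), the nearest neighbours in its order.

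Of the CXC chemokines, Cxcl2 (ENSMUSG00000058427) recruits neutrophils through Cxcr2. Its levels were 7.89, 7.62 and 8.82 CPM in AML, 69.8, 62.4 and 68.6 CPM in the KO-labelled libraries, 54.4, 69.4 and 67.7 CPM in NHD13 and 63.7, 72.4 and 75.3 CPM in WT. The 3 HSPC groups overlapped and AML lay below all of them. No pair of HSPC groups passed the test: the log2 fold change was -0.14 in NHD13 over WT (95% interval -0.35 to 0.07, edgeR adjusted p = 0.201; without WT replicate 1 it was called, at -0.21 and edgeR adjusted p = 0.0471), 0.07 in KO-labelled over NHD13 (-0.14 to 0.28, edgeR adjusted p = 0.595) and -0.08 in KO-labelled over WT (-0.28 to 0.13, edgeR adjusted p = 0.556). In AML Cxcl2 fell 8.23-fold relative to the KO-labelled libraries (log2 -3.04 ± 0.11, edgeR adjusted p = 3.20e-15).

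Cxcl10 (ENSMUSG00000034855), an interferon-induced ligand of Cxcr3, had another order. It stood at 0.302, 0.341 and 0.624 CPM in AML, 89.1, 89.2 and 91.1 CPM in the KO-labelled libraries, 157, 169 and 151 CPM in NHD13 and 33.4, 37.4 and 41.6 CPM in WT. The groups did not overlap, with NHD13 highest and AML at 7, 8 and 16 reads. Cxcl10 rose 4.24-fold in NHD13 relative to WT (log2 2.08 ± 0.09, edgeR adjusted p = 2.62e-13). In the KO-labelled libraries it was 1.77-fold below NHD13 (log2 -0.82 ± 0.08, edgeR adjusted p = 1.53e-07) and 2.40-fold above WT (log2 1.26 ± 0.08, edgeR adjusted p = 1.37e-09). The step to AML was the largest among the members in any of the 3 main comparisons, 207-fold below the KO-labelled group (log2 -7.69 ± 0.15, edgeR adjusted p = 2.43e-18).

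Among the cytokines, Il1b (ENSMUSG00000027398) encodes interleukin 1 beta, a fever-inducing cytokine released after cleavage by caspase-1. It stood at 3.79, 4.30 and 3.32 CPM in AML, 4.64, 4.57 and 4.41 CPM in the KO-labelled libraries, 30.7, 35.2 and 34.5 CPM in NHD13 and 3.44, 3.57 and 4.83 CPM in WT. NHD13 was high and the other 3 groups lay close together. Relative to WT, Il1b rose 8.49-fold in NHD13 (log2 3.09 ± 0.13, edgeR adjusted p = 5.09e-13), and relative to NHD13 it fell 7.37-fold in the KO-labelled libraries (log2 -2.88 ± 0.13, edgeR adjusted p = 2.23e-12). The KO-labelled and WT levels did not pass the test (log2 0.20, 95% interval -0.14 to 0.55, edgeR adjusted p = 0.310), nor did AML and KO-labelled levels (log2 -0.26, 95% interval -0.61 to 0.09, edgeR adjusted p = 0.122), although these libraries did not overlap.

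Il1a (ENSMUSG00000027399), the gene of interleukin 1 alpha, was hardly detected. It had 6, 2 and 4 reads in AML, 2, 0 and 0 in the KO-labelled libraries, 0, 1 and 0 in NHD13 and 3, 0 and 0 in WT. A count of 0 allows up to 3 reads, or 0.114 to 0.162 CPM depending on the library. AML had the most reads, but its replicate 2, at 0.0852 CPM, lay below the floor of the NHD13 libraries (0.148 to 0.162 CPM). No order of the groups is therefore read from these counts. Il1a was below the filter on low counts, and no difference between groups was tested.

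Tnf (ENSMUSG00000024401), the gene of tumour necrosis factor, varied least of the tested members. Its values were 66.9, 62.9 and 64.0 CPM in AML, 48.5, 46.6 and 52.2 CPM in the KO-labelled libraries, 51.7, 55.5 and 61.7 CPM in NHD13 and 44.0, 57.8 and 57.1 CPM in WT. AML lay above every other library, and the HSPC groups overlapped. Tnf was 1.32-fold higher in AML than in the KO-labelled group (log2 0.40 ± 0.09, edgeR adjusted p = 7.46e-04), with upper-quartile scaling ending the call (log2 0.21, edgeR adjusted p = 0.0648), and 1.22-fold higher than in WT (log2 0.29 ± 0.09, edgeR adjusted p = 0.00804). Against NHD13 the AML value did not pass the test (log2 0.20, 95% interval -0.02 to 0.41, edgeR adjusted p = 0.0575). NHD13 over WT gave log2 0.09 (95% interval -0.13 to 0.31, edgeR adjusted p = 0.449), a value whose sign turned to -0.028 without WT replicate 1, and KO-labelled over NHD13 gave -0.20 (-0.42 to 0.02, edgeR adjusted p = 0.104).

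Il6 (ENSMUSG00000025746), whose product signals through Il6ra and Il6st, had the lowest mean FPKM of the tested members in every group. It stood at 0.215, 0.0426 and 0.156 CPM in AML (5, 1 and 4 reads), 3.48, 4.34 and 3.32 CPM in the KO-labelled libraries, 0.432, 0.524 and 0.297 CPM in NHD13 and 1.89, 2.45 and 2.52 CPM in WT. The groups did not overlap, and the KO-labelled group was highest. Il6 fell 5.44-fold in NHD13 relative to WT (log2 -2.44 ± 0.32, edgeR adjusted p = 3.14e-06). It was 8.87-fold higher in the KO-labelled libraries than in NHD13 (log2 3.15 ± 0.31, edgeR adjusted p = 1.19e-07) and 1.63-fold higher than in WT (log2 0.70 ± 0.23, edgeR adjusted p = 0.0230). AML lay 26.0-fold below the KO-labelled group (log2 -4.70 ± 0.36, edgeR adjusted p = 4.29e-10), at a depth of so few reads that the SE was the widest among the members.

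The remaining contrasts place the groups in order. In KO-labelled over WT, 5 of the 8 tested genes were called, 3 higher (Ccl9, Cxcl10 and Il6) and 2 lower (Ccl3 and Ccl4), against 37.1% of all tested genes, 17.2% higher and 20.0% lower. In AML over WT, 6 were lower and Tnf was higher, against 84.7% of all genes called, 41.7% higher and 43.0% lower, and Il1b did not pass the test (log2 -0.05, 95% interval -0.40 to 0.30, edgeR adjusted p = 0.746). In AML over NHD13, 7 were lower and Tnf was not called, against 82.4% of all genes called, 43.3% higher and 39.1% lower.

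The genes whose course over the 12 libraries was most like that of a member were found by the root mean square (RMS) difference between log2 CPM values, each gene centred on its own mean. Ccl3 and Ccl4 differed from each other by 0.60, less than any other pair of members, while Cxcl10 and Tnf differed by 3.402. The nearest genes to Ccl3 were Flywch2, Zfp820 and Map7d3 (RMS 0.32 each) and those to Ccl4 were Bex4 (0.39), Xlr3b (0.45) and Map7d3 (0.51). Nearest to Ccl9 were Slfn10-ps (0.16), Smim3 and Ly86 (0.18 each), and nearest to Cxcl2 were Cstb, 1810022K09Rik and Fmc1 (0.13 each). Among the genes nearest to Cxcl10 were Erdr1 (0.59) and Hist1h2ap (0.64). Il1b was nearest to Fbxo27 (0.29), G0s2 (0.31) and Glt1d1 (0.31), Tnf to Mdm2 (0.07), Strada (0.09) and Kcmf1 (0.10), and Il6 to Csgalnact1 (0.43), C130089K02Rik (0.45) and the mast cell gene Ms4a2 (0.45). The range of the member itself was 6.64 for Ccl3, 8.75 for Cxcl10 and 0.605 for Tnf on the same log2 scale.

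Marker genes of cell types that make these factors also moved between the groups. Marker counts are read against all tested genes, of which 25.3% were higher and 28.7% lower in NHD13 over WT. The shares were 20.6% and 20.3% in KO-labelled over NHD13, and 42.8% and 39.5% in AML over KO-labelled. The 18 neutrophil markers summed to 26246 to 26657 CPM in AML, 57408 to 60984 CPM in the KO-labelled libraries, 147990 to 170480 CPM in NHD13 and 29543 to 32412 CPM in WT. NHD13 was highest, as it was for the monocyte and macrophage and the T and NK cell sums below. Most of the WT sum was Mpo and Elane, at means of 14864 and 9403 CPM. The AML sum lay below that of WT, although 14 of the 18 were higher in AML than in WT and 4 lower, against 41.7% and 43.0% of all tested genes. All 18 were higher in NHD13 than in WT, and all 18 were lower in the KO-labelled group than in NHD13. In AML 13 were higher and 5 lower than in the KO-labelled group, although the sum was lower. Ltf (log2 4.73 ± 0.09) and Mmp9 (log2 4.22 ± 0.13), of later granules, were among the higher, and the abundant primary granule gene Elane, at 2478 CPM in AML and 19333 CPM in the KO-labelled group, was among the lower. The 20 monocyte and macrophage markers summed to 2883 to 2903 CPM in AML, 4687 to 4849 CPM in KO-labelled libraries, 9429.9 to 11947 CPM in NHD13 and 2560.2 to 2920 CPM in WT, with Marco at 0 in WT. Ly6c2 and Lyz2, at means of 5985 and 4249 CPM, made up most of the NHD13 sum. Of the 19 tested, 5 were higher and 12 lower in NHD13 than in WT, 9 higher and 8 lower in the KO-labelled group than in NHD13, and 11 higher and 6 lower in AML than in the KO-labelled group. The 12 mast cell and basophil markers summed to 229 to 238 CPM in AML, 596 to 635 CPM in KO-labelled libraries, 331 to 362 CPM in NHD13 and 809.6 to 866 CPM in WT. Of those, Fcer1a, Tpsb2 and Tpsab1 were at 0 in AML, Fcer1a and Mcpt4 in the KO-labelled group, Mcpt4 and Tpsab1 in NHD13, and Mcpt4 in WT. Most of the AML sum was Gata2, which is also among the stem and progenitor markers below, and Hdc, at means of 116 and 93.1 CPM. Of the 9 tested, 1 was higher and 7 lower in NHD13 than in WT. In the KO-labelled group 5 were higher and 2 lower than in NHD13, and in AML 7 were lower and none higher than in the KO-labelled group. The 13 erythroid markers summed to 265 to 273 CPM in AML, 5019 to 5409 CPM in KO-labelled libraries, 4403 to 5436 CPM in NHD13 and 3317 to 3472 CPM in WT, and none was at 0 in a whole group. Car1 and Car2, at means of 1854 and 2278 CPM, made up most of the NHD13 sum, and Tfrc, at 148 CPM, most of the AML sum. In NHD13 9 were higher and 1 lower than in WT. In the KO-labelled group 2 were higher and 3 lower than in NHD13, and in AML 3 were higher and 9 lower than in the KO-labelled group.

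Markers of lymphoid, dendritic, stromal and progenitor cells differed as well. The 12 stem and progenitor markers summed to 1023 to 1061 CPM in AML, 683 to 695 CPM in KO-labelled libraries, 272 to 276 CPM in NHD13 and 1118 to 1175 CPM in WT. All 12 were lower in NHD13 than in WT and higher in the KO-labelled group than in NHD13, and in AML 5 were higher and 4 lower than in the KO-labelled group. The 13 T and NK cell markers summed to 149 to 152 CPM in AML, 1261 to 1306 CPM in KO-labelled libraries, 2258 to 2646 CPM in NHD13 and 1036 to 1061 CPM in WT, with Ncr1 and Xcl1 at 0 in AML and Gzma at 0 in NHD13. Most of that sum was Nkg7, at a mean of 134 CPM in AML, 1137 CPM in the KO-labelled group, 2403 CPM in NHD13 and 989 CPM in WT, and of the 11 tested 2 were higher and 6 lower in NHD13 than in WT. The 11 dendritic cell markers summed to 1468 to 1542 CPM in AML, 182 to 187 CPM in KO-labelled libraries, 115 to 138 CPM in NHD13 and 509 to 540 CPM in WT, with Clec9a at 0 in NHD13. Of these, 8 were higher and 2 lower in AML than in the KO-labelled group, and 1 was higher and 10 lower in NHD13 than in WT. The 11 B cell markers summed to 23.3 to 24.6 CPM in AML, 63.1 to 68.4 CPM in KO-labelled libraries, 124 to 129 CPM in NHD13 and 160.2 to 167 CPM in WT, with Rag1 at 0 in the KO-labelled group. Of the 10 tested, 6 were lower and none higher in NHD13 than in WT, and all 10 were lower in the KO-labelled group than in NHD13. In AML 3 were higher and 3 lower than in the KO-labelled group, although the sum was lower. The 11 stroma and endothelium markers summed to 166 to 171 CPM in AML, 62.7 to 68.6 CPM in KO-labelled libraries, 21.9 to 24.97 CPM in NHD13 and 73.1 to 76.7 CPM in WT, with Cdh5 and Emcn at 0 in NHD13. Most of the AML sum was Pecam1 and Pdgfrb, at means of 102 and 60.2 CPM. Of the 8 tested, 3 were higher and 5 lower in AML than in WT, although the AML sum was higher. Against the KO-labelled group 3 were higher and 2 lower in AML, and 1 was higher and 6 lower in NHD13 than in WT. The part of any of these cells in the levels of the 9 genes was not tested.

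The other genes of the pathway were followed in lists, by role. Counts in each list are read against all tested genes. Of these, 25.3% were higher and 28.7% lower in NHD13 over WT, and 20.6% and 20.3% in KO-labelled over NHD13. For AML over KO-labelled the shares were 42.8% higher and 39.5% lower. Of the receptors of the 9 factors, 12 of 14 were tested. In NHD13 over WT, 6 were higher and 6 lower. Ccr1, the receptor of Ccl3 and Ccl9, stood at 59.6 CPM in NHD13 and 2.02 CPM in WT (log2 4.89 ± 0.15), and Il1r2, a decoy receptor for interleukin 1, at 65.4 CPM in NHD13 and 5.11 CPM in WT (log2 3.68 ± 0.09). The signalling receptor Il1r1 fell to 0.612 CPM in NHD13, against 9.95 CPM in WT (log2 -4.02 ± 0.21), and Il6st, the shared signal chain of the interleukin 6 family, to 0.791 CPM in NHD13, against 6.61 CPM in WT (log2 -3.05 ± 0.19). In KO-labelled over NHD13, 3 receptors were higher, 5 lower and 4 not called. Il6st rose (log2 2.81 ± 0.19) and Ccr1 rose slightly (log2 0.45 ± 0.11), while Il1r2 (log2 -2.26 ± 0.09) and the neutrophil receptor Cxcr2 (log2 -1.51 ± 0.11) fell. In AML over KO-labelled, 11 were higher, none lower and Ccr1 not called, with a median log2 of 2.02. Cxcr3, the receptor of Cxcl10, reached 6.07 CPM in AML, against 0.432 CPM in the KO-labelled group (log2 3.82 ± 0.31), and Il6ra reached 104 CPM in AML, against 8.99 CPM (log2 3.53 ± 0.13) in the KO-labelled group.

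The enzymes and antagonists that set how much factor is released or blocked were 15 genes, all tested. In NHD13 over WT, 7 were higher, 5 lower and 3 not called. Il1rn, the antagonist that blocks Il1r1, rose to 7.32 CPM in NHD13, against 0.535 CPM in WT (log2 3.77 ± 0.23), and Socs3, a brake on interleukin 6 signalling, fell to 4.95 CPM in NHD13, against 20.7 CPM in WT (log2 -2.06 ± 0.14). Casp1, which cleaves the interleukin 1 beta precursor, did not pass the test, at 65.6 CPM in NHD13 and 62.2 CPM in WT. In KO-labelled over NHD13, 6 were higher and 6 lower, with Il1rn lower (log2 -3.52 ± 0.22) and Socs3 higher (log2 1.19 ± 0.15). In AML over KO-labelled, 9 were higher and 2 lower. Casp1 (log2 -0.60 ± 0.09) and Pycard, its adaptor in the inflammasome (log2 -1.45 ± 0.09), were the 2 that fell.

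Of the 20 sensors and adaptors upstream of NF-kappaB, 11 were higher and 3 lower in NHD13 than in WT. They included Tlr4, the receptor of bacterial lipopolysaccharide (log2 1.43 ± 0.17), and its co-receptor Cd14 (log2 1.48 ± 0.11), which rose, and Ly96, another part of that receptor, which fell (log2 -1.33 ± 0.19). In the KO-labelled group 2 were higher and 8 lower than in NHD13, with Tlr4 (log2 -1.68 ± 0.18) and Cd14 (log2 -1.31 ± 0.11) among the lower. In AML 13 were higher and 4 lower than in the KO-labelled group, with Tlr1 (log2 2.35 ± 0.26) up and Ly96 (log2 -3.18 ± 0.26) and Cd14 (log2 -1.88 ± 0.13) down.

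There were 9 NF-kappaB subunits and kinases in the lists. In NHD13 over WT, 1 was higher, 3 lower and 5 not called, with the subunit Relb lower (log2 -0.79 ± 0.21). In KO-labelled over NHD13, Rel (log2 0.77 ± 0.11) and the kinase gene Map3k14 (log2 1.39 ± 0.25) were higher and 7 were not called. In AML over KO-labelled, 6 were higher and Rela was lower (log2 -0.36 ± 0.10). The 14 feedback inhibitors fell more often than they rose in 2 of the comparisons: 3 higher and 10 lower in NHD13 over WT, 9 higher and 2 lower in KO-labelled over NHD13, and 3 higher and 10 lower in AML over KO-labelled. Zfp36, which destabilises the mRNA of Tnf and other cytokines, stood at 315 CPM in NHD13 and 884 CPM in WT (log2 -1.49 ± 0.08) and rose in the KO-labelled libraries to 675 CPM, against 315 CPM in NHD13 (log2 1.10 ± 0.08). Nfkbia, the inhibitor IkappaB alpha and a direct NF-kappaB target, fell to 66.6 CPM in AML, against 1274 CPM in the KO-labelled group (log2 -4.26 ± 0.09). The phosphatase gene Dusp2 fell as well, to 86.9 CPM in AML, against 652 CPM in the KO-labelled group (log2 -2.91 ± 0.07).

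Of 16 other chemokines, 10 were tested, and most were low, with a summed level of 13.2 to 15.3 CPM in AML, 29.6 to 31.2 CPM in KO-labelled libraries, 37.0 to 45.4 CPM in NHD13 and 30.2 to 32.7 CPM in WT. In NHD13 over WT, 2 were higher, among them the myeloid chemokine Ccl6 (log2 1.18 ± 0.10), and 3 lower, among them the lymphocyte chemokine Ccl5 (log2 -2.84 ± 0.24). In KO-labelled over NHD13, 3 were higher and 2 lower, with Ccl2, which attracts monocytes, higher (log2 1.52 ± 0.24) and Ccl6 lower (log2 -1.33 ± 0.11). In AML over KO-labelled, 3 were higher and 7 lower. Cxcl9, which shares the receptor Cxcr3 with Cxcl10, stood at 2.01 CPM in AML and 0.0939 CPM in the KO-labelled group (log2 4.38 ± 0.62), the opposite direction to Cxcl10, and Cxcl3, a neighbour of Cxcl2 in function, fell (log2 -5.93 ± 0.62).

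Of 19 other cytokines, 15 were tested. In NHD13 over WT, 3 were higher and 10 lower, with the B cell survival factor Tnfsf13b at 9.65 CPM in NHD13 and 0.822 CPM in WT (log2 3.55 ± 0.20) and the interleukin 1 relative Il18 at 0.575 CPM in NHD13 and 9.43 CPM in WT (log2 -4.03 ± 0.27). In KO-labelled over NHD13, 6 were higher and 4 lower. Osm, a member of the interleukin 6 family, rose to 99.2 CPM in the KO-labelled libraries, against 29.1 CPM in NHD13 (log2 1.77 ± 0.10), and Tnfsf13b fell (log2 -4.17 ± 0.22). In AML over KO-labelled, 5 were higher, 5 lower and 5 not called, with Tgfb1 higher (378 CPM in AML, against 83.05 CPM in the KO-labelled group, log2 2.19 ± 0.10) and Osm lower (log2 -2.40 ± 0.10).

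The 25 interferon response genes were set beside Cxcl10, which is a target of the same signal. In NHD13 over WT, where Cxcl10 rose, 6 were higher and 16 lower (median log2 -0.51), against 25.3% and 28.7% of all tested genes. Oas2 rose (log2 0.91 ± 0.12) and Ifi44 fell (log2 -2.42 ± 0.15). In KO-labelled over NHD13, 8 were higher and 6 lower, against 20.6% and 20.3%, with Gbp2 higher (log2 1.63 ± 0.17) and Oas1a lower (log2 -0.56 ± 0.08). In AML over KO-labelled, where Cxcl10 fell, 13 were higher and 10 lower (median log2 0.37). That is near the share of all tested genes, 42.8% higher and 39.5% lower. Oas2 was higher there (log2 2.87 ± 0.11) and Ifi44 lower (log2 -3.998 ± 0.23).

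**Figure D4:**
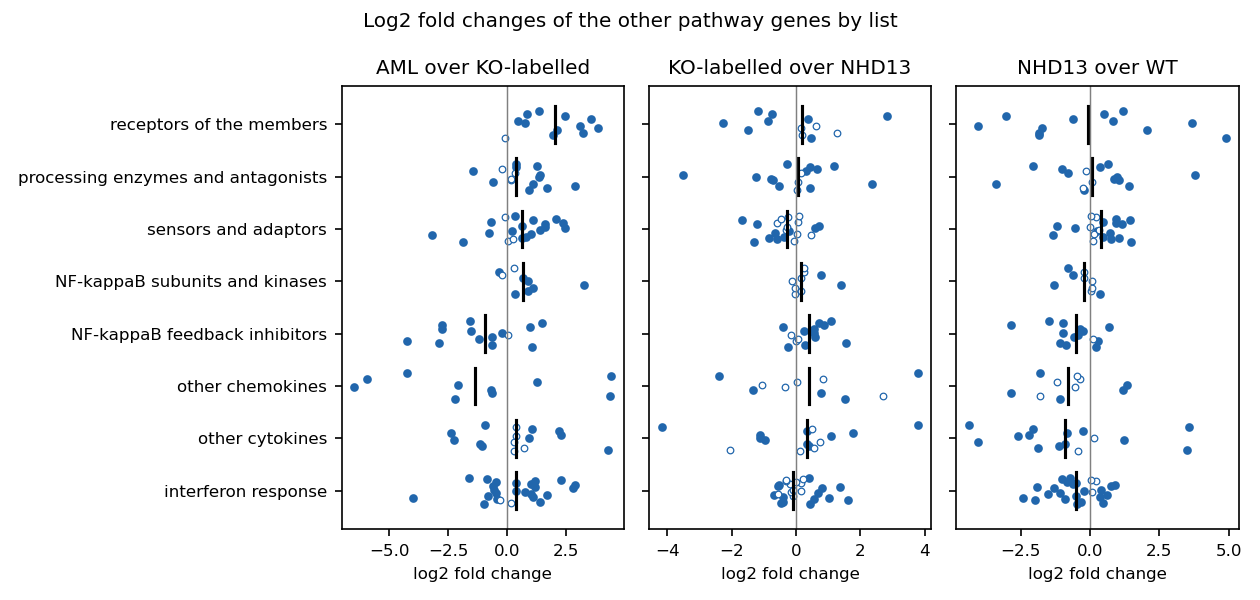
Log2 fold changes (horizontal axis) of single tested genes in 8 lists of pathway genes, for AML over KO-labelled, KO-labelled over NHD13 and NHD13 over WT. Filled points passed an adjusted p of 0.05 in edgeR's quasi-likelihood test, open points did not, and the black bar is the median of the list. Horizontal scales differ between panels, and the receptors have a median of 2.02 in AML over KO-labelled.

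DNA methylation at the 9 genes was read from the authors' 3 tables of differentially methylated regions, each of which compares 1 library with 1 other, so there is no replicate and no test, and coverage is unknown. The side that belongs to each library was taken from the order of names in the tables. Where tables shared a library and a region, that reading gave values within 0.02 of each other (as fractions) in 4015 of 4032 and 2461 of 2467 regions. A region in the gene or within 10 kb of it was listed for 7 of 9 members between NHD13 and WT (Il1b and Il6 had none), against 65.2% of protein-coding genes. Between the KO-labelled library and NHD13 there was one for 4 of 9 (Ccl3, Ccl4, Cxcl10 and Tnf), against 55.8%, and between AML and the KO-labelled library for all 9, against 70.3%. Of the distinct regions, 15 of 17 were lower in NHD13 than in WT, 3 of 3 were higher in the KO-labelled library than in NHD13, and 7 of 11 were lower in AML than in the KO-labelled library. Of all regions in the tables, 81.6% were lower in NHD13 than in WT, 77.6% were higher in the KO-labelled library than in NHD13, and 77.8% were lower in AML than in the KO-labelled library. Regions at Ccl3, Ccl4 and Ccl9, whose RNA was lower in NHD13 than in WT, and regions at Cxcl10, whose RNA was higher, were both less methylated in NHD13.

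Close to the start of Ccl3, a region of 14 CpG sites (chr11:83649708-83649942, centred at -447 from the start) was methylated at 39.2% in the KO-labelled library and 17.1% in NHD13. A slightly longer region of 17 CpG sites (chr11:83649605-83649942) was at 5.66% in AML and 37.5% in the KO-labelled library, and its end holds the capital bases of the Ccl3 sequence above. The same regions fall inside the RefSeq span of Ccl4. Ccl3 and Ccl4 RNA was higher in the KO-labelled libraries than in NHD13 and lower in AML than in the KO-labelled libraries, the same signs as the methylation values. Both of these comparisons use the KO-labelled library. Between NHD13 and WT, where RNA of both genes was lower in NHD13, no region was listed at this place. The region nearest to the Ccl3 gene was then 6721 bases away.

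At Cxcl10 a region past the end of the gene (chr5:92344997-92345412, 21 CpG sites, 1226 bases from the gene) was at 71.7% in AML, 92.6% in the KO-labelled library, 60.9% in NHD13 and 93.0% in WT, where the AML value is for a region that ends at 92345394. NHD13 was lowest and AML next, which the KO-labelled and WT libraries exceeded. Before the start, a region of 6 CpG sites (chr5:92349401-92349615, centred at -619) was at 59.2% in NHD13 and 85.0% in WT.

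Il1b had 2 regions with identical borders in all 3 tables, both far before the gene. The first (chr2:129410367-129410703) was at 44.3% in AML, 77.3% in the KO-labelled library, 44.6% in NHD13 and 87.4% in WT, and the other (chr2:129407323-129407688) at 63.1% in AML, 91.0% in the KO-labelled library, 52.6% in NHD13 and 83.8% in WT. A region before Ccl9 (chr11:83593484-83593695) was at 45.9% in AML, 71.4% in the KO-labelled library, 36.6% in NHD13 and 67.5% in WT. In all 3 the AML and NHD13 values were below those of the KO-labelled and WT libraries. These regions were picked for being listed in all 3 tables, so a difference at each step was required of them. The directions are those of most regions in the tables (81.6%, 77.6% and 77.8%, given above), so this order is not particular to these genes. A region before Cxcl2 that overlapped between the tables without identical borders (chr5:90890894-90891052, 12847 bases from the gene) had another order. It was at 92.4% in AML, 66.5% and 71.1% in the KO-labelled library, 48.4% and 37.7% in NHD13 and 58.1% in WT, each pair of values from 2 tables, so AML was highest there. Within Il1b itself a region of 5 CpG sites (chr2:129369638-129369888) ran the other way, at 92.5% in AML and 57.1% in the KO-labelled library. Within Il6 a region of 6 CpG sites (chr5:30019537-30019644) was at 94.97% in AML and 66.9% in the KO-labelled library. Within Tnf a region of 9 CpG sites (chr17:35200331-35200406) was at 19.8% in NHD13 and 39.8% in WT, while a region of 34 CpG sites 4093 bases past Tnf (chr17:35194531-35195274) was higher in NHD13, at 55.0%, against 28.8% in WT.

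**Figure D5:**
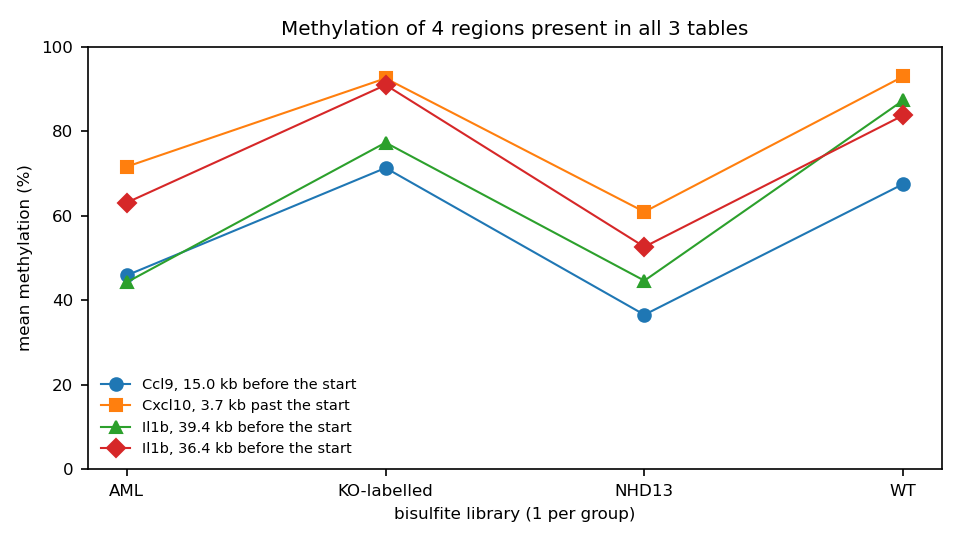
Mean methylation (%, vertical axis) in the AML, KO-labelled, NHD13 and WT bisulfite libraries, 1 library each, at 4 regions listed in all 3 tables, 3 with identical borders and the Cxcl10 region with nearly identical ones. Lines join values of a region. At these 4 regions both AML and NHD13 lie below both the KO-labelled library and WT, which the Cxcl2 region given above, not plotted, does not share. Being listed in all 3 tables required a difference at each step, and most regions in the tables change in these same directions.

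H3K36me3, which Setd2 lays down over transcribed gene bodies, was listed as broad peaks in 2 leukemia-stage libraries, 1 for each label and so without a test. In the library labelled NHD13/Setd2 KO, peaks overlapped 1 of the 9 genes, Ccl9, with 2 short peaks (429 and 337 bases, authors' fold enrichment 4.63 and 4.80) that covered 13.4% of the gene, against 28.4% of protein-coding genes with a peak. In the library labelled NHD13 they overlapped 2 of 9, against 45.4% of protein-coding genes: Ccl9, with a peak of 2766 bases over 48.4% of the gene (fold enrichment 5.42), and Tnf, with a peak of 1591 bases over 46.1% (fold enrichment 5.77). In the AML RNA libraries, all labelled NHD13/Setd2 KO, Ccl9 and Tnf had the highest FPKM of the members, at 50.1 ± 1.51 and 48.7 ± 1.96 (SD, n = 3). In the peak list of that same label Tnf had no peak, and the nearest was 25765 bases away. No RNA was sequenced for the label NHD13 at the leukemia stage, so its peaks have no matching RNA level here. The lists hold 16902 peaks in the library labelled NHD13/Setd2 KO and 30953 in the library labelled NHD13, with a median length of 1101 and 2503 bases. They cover 28415626 bases in the library labelled NHD13/Setd2 KO and 193042873 bases in the library labelled NHD13. The nearest peak to Cxcl2 was 601677 bases away in the library labelled NHD13/Setd2 KO and 540378 bases away in the library labelled NHD13.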

How the data were processed

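The authors deposited raw read counts per gene and a table of FPKM, which equals count over gene length and library total to within a relative difference of 5.2e-15. Per the submitters' processing notes, the tools included HISAT2 2.0.5, HTSeq 0.9.1, Bismark 0.19.0, Bowtie2 2.2.9 and MACS2 2.1.1.20160309, on mm10. The tables of methylated regions deposited by the authors give mean methylation as a fraction, its difference and a score per region, and their caller was not given in the sources used here. The authors' deposited peak lists hold a fold enrichment, a score and −log10 p and q values per peak. The deposited table of differentially expressed genes was not used here.

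Counts were tested with edgeR 4.0.16 (R 4.3.3): filterByExpr (16233 of 53946 genes), TMM factors, 1 robust quasi-likelihood fit over 12 libraries with 8 residual degrees of freedom, and Benjamini-Hochberg adjustment at 0.05. Standard errors were computed as the log2 fold change over the square root of F. Alternatives used DESeq2 1.42.0 and limma 3.58.1 (log2 of FPKM plus 1 or 0.1). The fit was tested on simulated data. The floor of a count of 0 is 3 reads and covers counting error only. Same-numbered replicates were not treated as paired, since their deviations correlated by -0.0876 to 0.109. Gene positions and promoters came from RefSeq GRCm38.p6, matched by symbol.

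The 9 genes and the pathway and marker lists were chosen with earlier results of these data known. Named besides the 9 were, per list and comparison, genes from up to 2 higher and 2 lower with the largest change among those called, at 1 CPM or more in the higher group and with no overlap of libraries, and the 3 genes most like each member, of which 1 is not reported here. Casp1, in NHD13 over WT, and Ccr1, in AML over KO-labelled, were named outside this rule, after their values were seen.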

Additional observations from a re-analysis of the deposited data

How the results depend on the processing

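Over 16 alternatives for each comparison, 303 of 304 values of the 19 called results of single genes kept direction and call; the exception was Tnf in AML over KO-labelled, given in the report. Values that were not called turned sign in 7 cases: Tnf in NHD13 over WT (log2 -0.28 and -0.29 with limma on log2 of FPKM plus 1 and plus 0.1, and -0.028 to 0.16 when leaving out a replicate), Cxcl2 in KO-labelled over NHD13 (-0.030 to 0.14 when leaving out a replicate) and Il1b in AML over KO-labelled (0.11 and 0.14 with limma, and 0.29 with a correction for gene length chosen after the data were seen); the cause was not tested. Values that were not called gained a call in 10 cases: Cxcl2 in NHD13 over WT (-0.52 and -0.53 with limma, and -0.21 without WT replicate 1) and in KO-labelled over NHD13 (0.25 and 0.26 with limma), Tnf in NHD13 over WT (0.23 with the length correction) and in KO-labelled over NHD13 (-0.25 with the length correction and -0.20 with only the 2 groups compared), and Il1b in AML over KO-labelled (-0.45 with upper-quartile factors and -0.36 with only the 2 groups compared). FPKM has no composition factor, and limma moved the median of all genes to -0.21 and -0.36 in NHD13 over WT and to 0.21 and 0.42 in AML over KO-labelled, so relative to that median Tnf in NHD13 over WT was at -0.08 and 0.07. With the replicate number as a block the calls numbered 6, 6 and 7 in NHD13 over WT, KO-labelled over NHD13 and AML over KO-labelled, as without it. Leaving out a replicate gave 6 to 7, 6 and 7 calls.

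Members with a methylated region within the gene alone were 3 (NHD13 and WT), 1 (KO-labelled and NHD13) and 3 (AML and KO-labelled), and with a difference of at least 0.3 they were 3, 1 and 4. With 50 kb on either side, 8 members had one between NHD13 and WT, 8 between the KO-labelled library and NHD13, and 9 between AML and the KO-labelled library. The share of all protein-coding genes was computed for the 10 kb window alone. These other counts therefore cannot be set against all genes and describe the members only. With an overlap of at least 0.5 of the gene, 0 members had an H3K36me3 peak in either list, and at a −log10 q of at least 5 there were 0 in the library labelled NHD13/Setd2 KO. Depth limits Il1a, and Il6 and Cxcl10 in AML.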
